A study of Homo sapiens with 12 samples.

Results

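The unfolded protein response genes described here were 10 genes of the endoplasmic reticulum (ER): the luminal chaperones and folding enzymes HSPA5, HSP90B1, CALR and PDIA4, the cochaperone DNAJB9, the degradation factor HERPUD1, the transcription factor XBP1, and the stress sensors ERN1, ATF6 and EIF2AK3. They were chosen by exact gene symbol, and each symbol matched 1 row, which gave 10 of the 58307 rows of the count matrix that name a gene. The cells came from 2 human melanoma lines grown in culture, A375 and SK-MEL-28, and all of them received etoposide, a drug that traps topoisomerase II on DNA. In each line one group received etoposide alone and the other received etoposide together with rapamycin, an inhibitor of the kinase complex mTORC1 that induces autophagy, and each of the 4 groups had 3 polyA-selected RNA-seq libraries, 12 in all. The study sequenced them to ask how an autophagy inducer acts on melanoma cells under etoposide. Since every group carried etoposide and no untreated or rapamycin-only group was analysed here, the comparisons show the effect of adding rapamycin and not that of etoposide. The dose and time of treatment of these libraries are not given in the sources used here.

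Proteins that enter the ER are folded there by chaperones, and unfolded protein in its lumen switches on the unfolded protein response. In this response HSPA5 (also called BiP) is released from the sensors, ERN1 (IRE1) cuts XBP1 mRNA so that it is spliced into the form that encodes an active transcription factor, ATF6 is cut in the Golgi to release another transcription factor, and EIF2AK3 (PERK) phosphorylates the translation factor eIF2 alpha. ATF6 and spliced XBP1 then raise transcription of chaperone genes through short promoter motifs, the ER stress response elements. The response is much studied in melanoma, where secretory load and drug treatment are known to engage it.

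Depth was alike in all libraries, from 28189501 to 32499337 counts in rows that name a gene, and in each line the etoposide + rapamycin libraries stood apart from the etoposide libraries, since the largest distance within a group (78.5 in A375 and 78.4 in SK-MEL-28) was below the smallest distance between the groups (86.5 and 84.7). The neural crest factor SOX10 was high in all 12 libraries, at 165.5 to 578.5 CPM (counts per 1000000 after TMM scaling of the libraries), and was not called with rapamycin in either line (adjusted p = 0.572 and 0.543). S100B was at 56.7 to 106.3 CPM and fell in A375 (log2 fold change -0.58, adjusted p = 4.13e-05; -0.16, adjusted p = 0.16 in SK-MEL-28; difference 0.42, adjusted p = 0.0354). MITF, the regulator of the pigment cell lineage, was at 12.1 to 29.7 CPM and fell in both lines (-0.51, adjusted p = 0.00248, and -0.50, adjusted p = 0.0032). S100B and MITF moved beside the genes below, and their part in the results was not tested. The pigment cell genes PMEL, MLANA, TYR, TYRP1 and DCT were near 0 in all 12 libraries, with TYR at 0 to 6 counts and PMEL at 46 to 92 counts. SK-MEL-28 is generally known as a line that expresses pigment genes, so for the 6 libraries labelled SK-MEL-28 these pigment genes went against the label. SOX10 and S100B were expressed in both lines. Neither was called between the etoposide groups in edgeR's quasi-likelihood test (adjusted p = 0.325 and 0.115), so they do not tell the lines apart. In mean level, few genes lay far apart between the etoposide groups of the 2 lines, with 38 of 12713 (0.299%) at least 8 times apart. At least 2 times apart were 562 (4.42%), against 154 (1.21%) between the treatment groups of A375 and 145 (1.14%) between those of SK-MEL-28. The reason for the pigment genes and for these levels was not tested, and SK-MEL-28 below means the libraries labelled so. Of the markers of other cell types, those of epithelium and blood summed to at most 0.668 CPM in any library. Those of endothelium (PECAM1 and VWF) summed to 6.21 to 8.94 CPM with etoposide and 5.73 to 6.59 CPM with etoposide + rapamycin in A375, and to 4.2 to 5.55 and 3.26 to 3.64 CPM in SK-MEL-28. The fibroblast markers LUM and DCN were lower in sum with rapamycin in both lines. Their sum went from 11.6 to 15.1 CPM down to 7.87 to 8.27 CPM in A375. In SK-MEL-28 it went from 23.6 to 30.1 CPM down to 15.7 to 18.3 CPM. In edgeR's quasi-likelihood test LUM was called lower in both lines. DCN was called lower in A375 (log2 fold change -0.63, adjusted p = 0.0172) and not in SK-MEL-28 (-0.58, adjusted p = 0.188). PECAM1 was called lower in SK-MEL-28 (-0.70, adjusted p = 0.0488) and not in A375 (-0.38, adjusted p = 0.11). The difference between the lines was not called for DCN (0.057, adjusted p = 0.949) or PECAM1 (-0.32, adjusted p = 0.528). VWF was called in neither line. The part of these markers in the results was not tested.

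Because the response acts on promoters, the 250 bases before the transcription start were searched on both strands for 3 motifs, spelled here 5′ to 3′ with N for any base. The ER stress response element (ERSE) was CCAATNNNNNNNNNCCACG, ERSE-II was ATTGGNCCACG, and the unfolded protein response element (UPRE) was TGACGTGG. The first of these contains the CCAAT box and the second its reverse complement, which are common in promoters. Among 35116 RefSeq promoters of the same length, 26 (0.074%) held an ERSE, 18 (0.0513%) an ERSE-II and 215 (0.612%) a UPRE, against 11240 (32.0%) with a CCAAT box. An ERSE was found before HSPA5, HSP90B1, CALR and XBP1, and an ERSE-II before HERPUD1. These motifs are known as elements of genes of this response, so matches before such genes are no independent result. PDIA4, DNAJB9, ERN1, ATF6 and EIF2AK3 held neither, and no member held a UPRE. The 5 promoters with a match are printed so that the motifs can be read in place. That of PDIA4 is printed as a chaperone promoter with no exact match. All come from RefSeq on GRCh38.p14, written 5′ to 3′ on the strand of the gene up to the base before the start. Capitals mark an ERSE or ERSE-II, and a match on the opposite strand reads as its reverse complement. The windows lie at chr9:125241344-125241593 (minus strand) for HSPA5, chr12:103930160-103930409 (plus strand) for HSP90B1, chr19:12938359-12938608 (plus strand) for CALR, chr22:28800570-28800819 (minus strand) for XBP1, chr16:56931892-56932141 (plus strand) for HERPUD1 and chr7:149028491-149028740 (minus strand) for PDIA4.
HSPA5: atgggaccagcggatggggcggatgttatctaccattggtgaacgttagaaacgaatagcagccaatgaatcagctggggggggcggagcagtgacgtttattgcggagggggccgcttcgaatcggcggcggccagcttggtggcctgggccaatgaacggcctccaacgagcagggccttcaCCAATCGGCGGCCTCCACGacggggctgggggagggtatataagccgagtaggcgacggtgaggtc
HSP90B1: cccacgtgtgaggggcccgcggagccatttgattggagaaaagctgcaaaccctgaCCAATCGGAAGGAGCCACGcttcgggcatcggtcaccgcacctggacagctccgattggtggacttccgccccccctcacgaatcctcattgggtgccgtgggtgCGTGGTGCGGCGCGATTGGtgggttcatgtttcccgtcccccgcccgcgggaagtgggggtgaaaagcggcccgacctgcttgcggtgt
CALR: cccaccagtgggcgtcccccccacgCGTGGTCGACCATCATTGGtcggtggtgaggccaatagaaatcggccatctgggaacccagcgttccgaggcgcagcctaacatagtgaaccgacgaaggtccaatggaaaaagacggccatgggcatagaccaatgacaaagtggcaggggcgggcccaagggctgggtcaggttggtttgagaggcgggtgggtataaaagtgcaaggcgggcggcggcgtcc
XBP1: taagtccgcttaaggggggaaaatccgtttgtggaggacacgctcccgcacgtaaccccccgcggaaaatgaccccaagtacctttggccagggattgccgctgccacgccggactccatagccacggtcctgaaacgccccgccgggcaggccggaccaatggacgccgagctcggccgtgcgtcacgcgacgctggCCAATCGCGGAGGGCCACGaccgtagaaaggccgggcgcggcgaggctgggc
HERPUD1: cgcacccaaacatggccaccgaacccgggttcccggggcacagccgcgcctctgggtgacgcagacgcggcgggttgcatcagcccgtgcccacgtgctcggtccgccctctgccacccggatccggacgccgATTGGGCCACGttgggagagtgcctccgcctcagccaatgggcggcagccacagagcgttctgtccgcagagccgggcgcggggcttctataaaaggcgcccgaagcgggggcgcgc
PDIA4: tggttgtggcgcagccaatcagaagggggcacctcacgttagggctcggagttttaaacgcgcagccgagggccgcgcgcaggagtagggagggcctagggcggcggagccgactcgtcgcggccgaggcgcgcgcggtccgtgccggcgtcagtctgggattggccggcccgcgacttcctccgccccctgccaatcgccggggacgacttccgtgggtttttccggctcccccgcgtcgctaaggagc

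The ERSE of HSPA5 ran from base -66 to -48 relative to the start, and that of XBP1 from -52 to -34. HSP90B1 carried 2, from -194 to -176 on the gene's strand and from -89 to -71 on the opposite strand, and was the member with the most exact matches. In CALR the ERSE lay far from the start, from -225 to -207 on the opposite strand, and in HERPUD1 the ERSE-II ran from -117 to -107. A CCAAT box alone stood before PDIA4 (3 times), DNAJB9 (1), ERN1 (1) and EIF2AK3 (4), and ATF6 had none in this window. Only exact matches were counted, and near matches, as in the HSPA5 promoter, were not. A match to these letters is a description of the sequence, and binding was not measured.

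**Figure D1:**
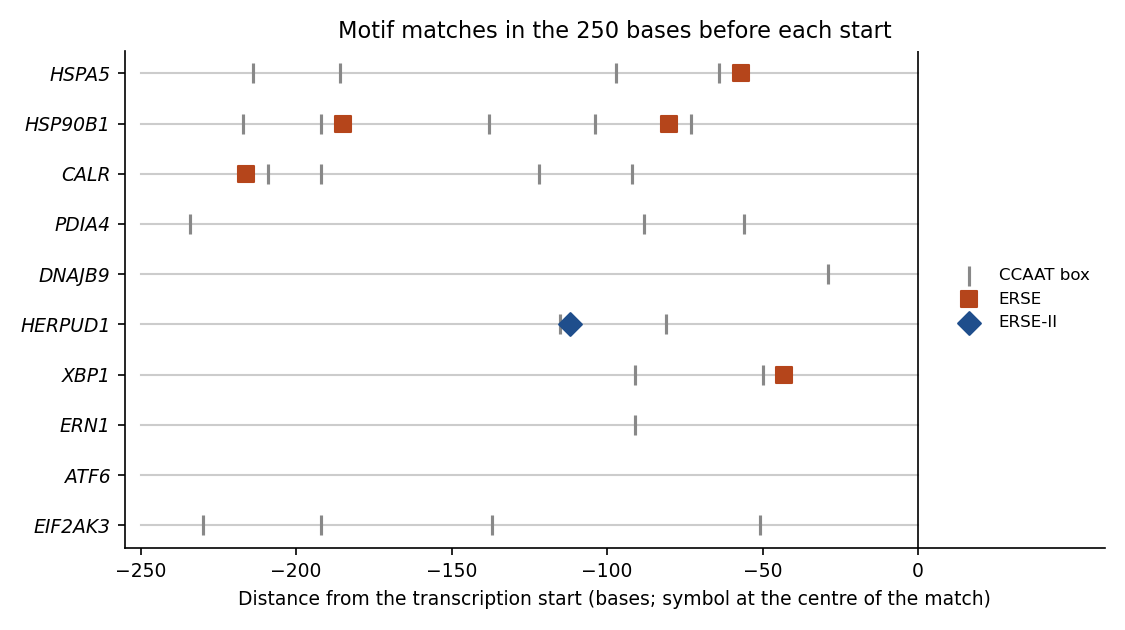
Motif matches before the transcription start of each of the 10 genes (x axis: distance from the start in bases; one row per gene; squares, ERSE; diamond, ERSE-II; grey ticks, CCAAT boxes on either strand). ERSE matches sit before HSPA5, HSP90B1 (2), CALR and XBP1, and the ERSE-II before HERPUD1, and the row of ATF6 is empty.

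Levels were compared between genes as CPM per kilobase of the canonical transcript. The calcium-binding chaperone CALR was highest in every group, at 571.5 ± 25.1 (SD, n = 3) in A375 with etoposide, followed by HSP90B1 at 288.9 ± 9.77, HSPA5 at 247.9 ± 0.528 and PDIA4 at 81.8 ± 2.23. XBP1 (31.8 ± 1.33) and HERPUD1 (21.5 ± 0.970) came next. The sensors were low, with ATF6 at 13.1 ± 0.761, EIF2AK3 at 4.69 ± 0.198 and ERN1 lowest at 1.52 ± 0.183, and DNAJB9 at 11.9 ± 0.829 lay between ATF6 and EIF2AK3. The order was the same in all 4 groups, and neighbours in it did not overlap over the 3 libraries, except ATF6 and DNAJB9, whose ranges met in the A375 etoposide group and in the SK-MEL-28 etoposide + rapamycin group. The 4 chaperones together took 0.309% of the TMM-scaled library size in A375 with etoposide and 0.229% with etoposide + rapamycin. In SK-MEL-28 they took 0.354% and 0.241%.

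**Figure D2:**
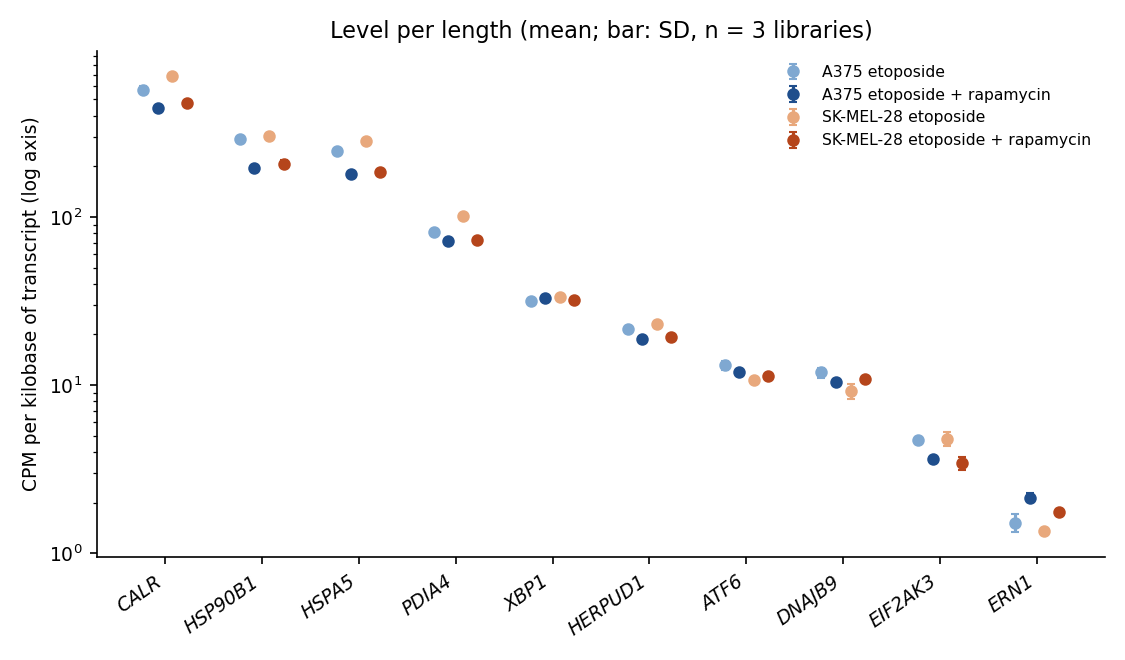
Level of each gene per length (y axis: CPM per kilobase of transcript, log axis; points, mean of 3 libraries; bars, SD, mostly smaller than the points; colours, the 4 groups). The order from CALR to ERN1 is shared by the groups, and the levels span from 690.6 for CALR to 1.35 for ERN1 in SK-MEL-28 with etoposide.

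Chaperone mRNA was lower with rapamycin in both lines. In A375, 6 of the 10 genes fell (HSPA5, HSP90B1, CALR, PDIA4, HERPUD1 and EIF2AK3), 1 rose (ERN1) and 3 were not called (DNAJB9, XBP1 and ATF6). Calls were made at an adjusted p under 0.05 in the quasi-likelihood test of edgeR, adjusted by Benjamini-Hochberg over all genes tested in a line. As these are bulk samples, fewer cells that express a gene and less RNA per cell cannot be told apart. Of all 18844 genes tested in A375, 13.8% fell and 14.3% rose. The same 6 genes fell in SK-MEL-28, the same gene rose and the same 3 were not called, where 10.1% of 18897 genes fell and 8.83% rose. The 10 genes had a median log2 fold change of -0.18 in A375, against -0.36 for SK-MEL-28, beside -0.0051 and 0.0053 over all genes tested. The changes were small: with a fold change over 1.5 also required, 0 of the 10 were lower in A375 (2.8% of all genes) and 1, HSPA5, in SK-MEL-28 (3.14% of all genes). In each line 9 of the 10 genes, all but XBP1, had groups that did not overlap, as had 42.6% of all genes in A375, and 35.9% in the other line. With library totals as the scale instead of TMM factors, calls over all genes went from 2691 higher and 2604 lower to 2215 and 3361 in A375, and from 1668 and 1914 to 1343 and 2377 in SK-MEL-28. Every call on these 10 genes stayed as it was, except that ATF6 was then also called lower in A375 (adjusted p = 0.0261).

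**Figure D3:**
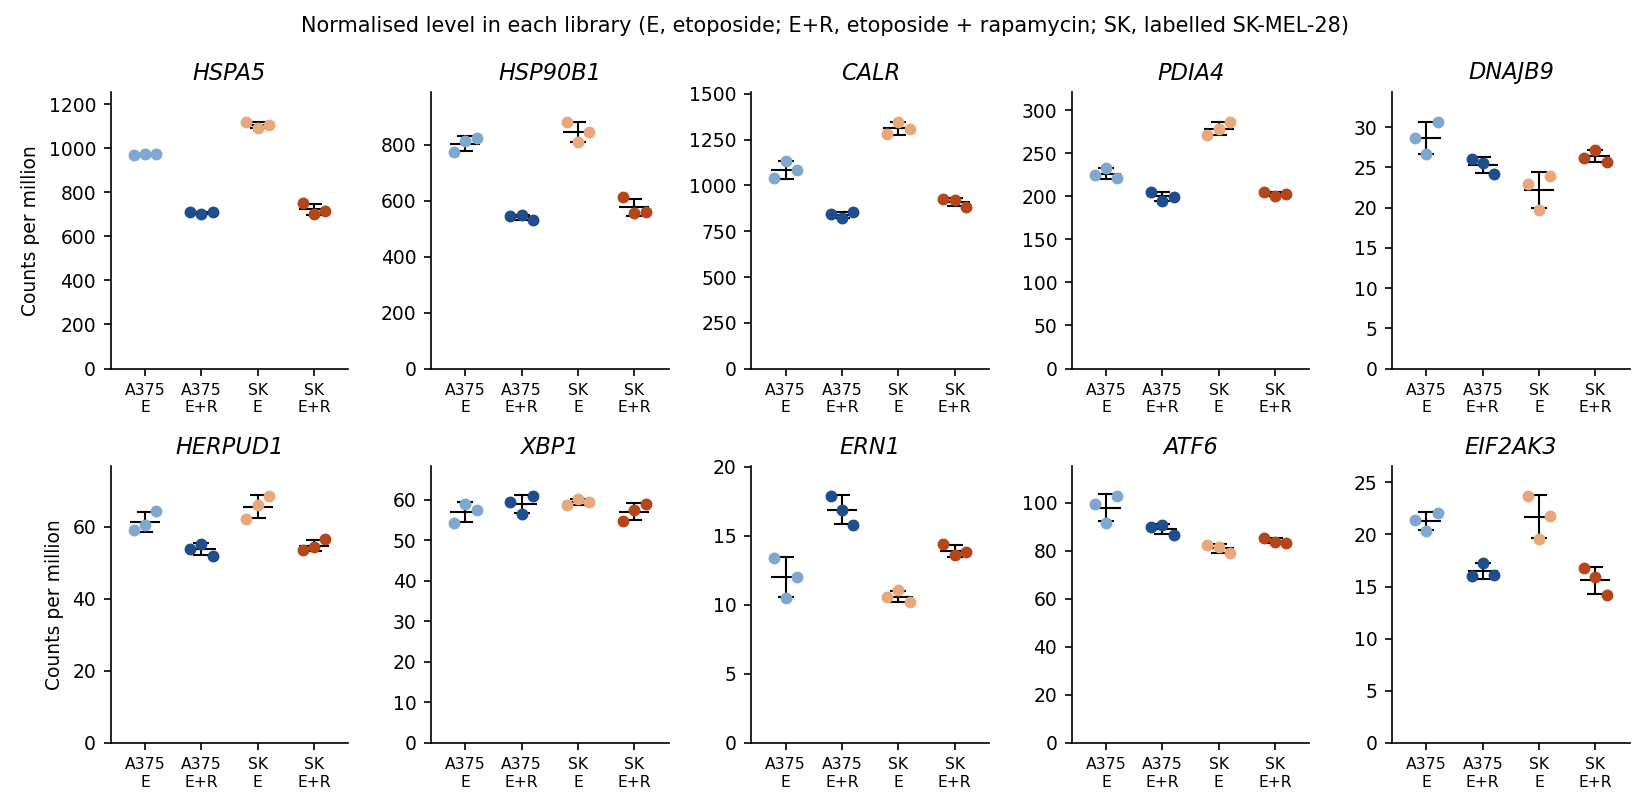
Level of the 10 genes in each library (y axis: CPM from 0; one panel per gene; points, the 3 libraries of each group; horizontal line and bars, mean and SD). HSPA5, HSP90B1, CALR and PDIA4 are lower in every etoposide + rapamycin library than in any etoposide library of the same line, ERN1 is higher, and the XBP1 groups overlap.

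HSPA5, the main Hsp70 chaperone of the ER and the regulator of all 3 sensors, lies at chr9:125234853-125241382 (GRCh38, as all gene positions here). Its level in A375 was 969.7, 971.8 and 973.9 CPM with etoposide and 709.7, 703.1 and 709.2 CPM with etoposide + rapamycin. In SK-MEL-28 it was 1121, 1090 and 1107 CPM against 749.6, 701.1 and 716.7 CPM. The groups were far apart in both lines, and libraries of one group differed by little. HSPA5 fell by 27.0% in A375 (log2 fold change -0.45, SE 0.0375, adjusted p = 4.33e-06) and by 34.8% in SK-MEL-28 (-0.62, SE 0.0417, adjusted p = 7.7e-07).

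HSP90B1 (GRP94), the Hsp90 chaperone of the ER, lies at chr12:103930107-103953931. With etoposide its level was 773.1, 813.2 and 824.9 CPM in A375 and 881.9, 810.7 and 844.2 CPM in SK-MEL-28. With etoposide + rapamycin it was 543.8, 547.1 and 529.5 CPM in A375 and 611.4, 557.1 and 560.4 CPM in SK-MEL-28. All etoposide + rapamycin libraries of both lines were below all etoposide libraries. The gene fell by 32.6% in A375 (log2 fold change -0.57, SE 0.0419, adjusted p = 1.78e-06), the largest fall among the 10 genes in that line, and by 32.0% in SK-MEL-28 (-0.56, SE 0.0505, adjusted p = 8.84e-06). UQCC6 overlaps HSP90B1 on the opposite strand and held 286 to 404 counts, against at least 15549 for HSP90B1. Whether counting used strand is not stated, and noncoding genes or pseudogenes also overlap CALR, HERPUD1, ERN1, ATF6 and EIF2AK3.

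CALR (calreticulin), a lectin chaperone that holds new glycoproteins and stores calcium, lies at chr19:12938578-12944489. Its level in A375 was 1039, 1135 and 1086 CPM with etoposide and 842.9, 823.5 and 856.0 CPM with etoposide + rapamycin. In SK-MEL-28 it was 1280, 1349 and 1310 CPM against 923.7, 918.5 and 883.1 CPM. Again no library crossed over, and CALR fell by 22.3% in A375 (log2 fold change -0.36, SE 0.0435, adjusted p = 7.73e-05) and by 30.9% in SK-MEL-28 (-0.53, SE 0.0401, adjusted p = 2e-06). PDIA4 (ERp72), a protein disulfide isomerase at chr7:149003062-149028662, was the least abundant of the 4. It was at 224.7, 233.3 and 221.3 CPM with etoposide in A375 and at 205.3, 194.9 and 199.2 CPM with etoposide + rapamycin. In SK-MEL-28 the levels were 271.0, 278.3 and 286.7 CPM and 204.8, 200.8 and 202.3 CPM. The 2 lines did not overlap with etoposide alone and overlapped with rapamycin. PDIA4 fell by 11.5% in A375 (log2 fold change -0.18, SE 0.0443, adjusted p = 0.0106), a call that was lost without the second etoposide + rapamycin library (adjusted p = 0.0558), and fell by 27.4% in SK-MEL-28 (-0.46, SE 0.0474, adjusted p = 2.48e-05).

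DNAJB9 (ERdj4), a J-domain cochaperone of HSPA5 that restrains ERN1, lies at chr7:108569867-108574850 and was called in neither line. In A375 it was at 28.7, 26.7 and 30.7 CPM with etoposide and at 26.1, 25.6 and 24.2 CPM with etoposide + rapamycin, and in SK-MEL-28 at 23.0, 19.7 and 23.9 CPM and at 26.2, 27.2 and 25.7 CPM. The groups did not overlap in either line, but they lay in opposite order, lower with rapamycin in A375 and higher in SK-MEL-28. Neither difference was called (log2 fold change -0.18, SE 0.0790, adjusted p = 0.116 in A375 and 0.24, SE 0.0869, adjusted p = 0.068 in SK-MEL-28).

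HERPUD1, a membrane protein that helps to assemble the complex for ER-associated degradation, lies at chr16:56932142-56944864. Its levels in A375 were 59.1, 60.4 and 64.4 CPM with etoposide and 53.9, 55.3 and 52.0 CPM with etoposide + rapamycin, and in SK-MEL-28 they were 62.3, 66.0 and 68.6 CPM and 53.6, 54.3 and 56.7 CPM. HERPUD1 fell in both lines without overlap, by 12.0% in A375 (log2 fold change -0.18, SE 0.0538, adjusted p = 0.0222), and fell by 16.6% in SK-MEL-28 (-0.26, SE 0.0546, adjusted p = 0.00486). The call in A375 was lost when any 1 of 3 libraries was left out, with adjusted p = 0.0668 without the first and 0.0926 without the third etoposide + rapamycin library and 0.107 without the third etoposide library. XBP1, at chr22:28794555-28800597, was at 54.4, 59.1 and 57.5 CPM with etoposide and 59.6, 56.4 and 61.0 CPM with etoposide + rapamycin in A375, and at 58.7, 60.3 and 59.5 CPM and 54.8, 57.5 and 59.0 CPM in SK-MEL-28. The groups overlapped in both lines and no difference was called (log2 fold change 0.055, SE 0.0545, adjusted p = 0.503 in A375 and -0.062, SE 0.0516, adjusted p = 0.452 in SK-MEL-28). Gene counts do not separate spliced from unspliced XBP1 mRNA, so its active form was not measured.

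Of the 3 sensors, ERN1 rose, EIF2AK3 fell and ATF6 was not called. ERN1, the kinase and RNase at chr17:64039080-64130819, was at 13.4, 10.5 and 12.0 CPM with etoposide and at 17.9, 16.9 and 15.8 CPM with etoposide + rapamycin in A375. In SK-MEL-28 it was at 10.6, 11.1 and 10.2 CPM against 14.4, 13.6 and 13.8 CPM. All libraries with rapamycin were higher than those without in the same line. ERN1 rose by 41.0% in A375 (log2 fold change 0.50, SE 0.108, adjusted p = 0.00448) and by 30.9% in SK-MEL-28 (0.39, SE 0.0960, adjusted p = 0.0131), the latter not called without the third etoposide library (adjusted p = 0.0577). It rested on 307 to 511 counts per library.

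EIF2AK3 is the eIF2 alpha kinase, at chr2:88556741-88691518. Its levels in A375 were 21.4, 20.3 and 22.1 CPM with etoposide and 16.0, 17.3 and 16.1 CPM with etoposide + rapamycin, and in SK-MEL-28 they were 23.7, 19.6 and 21.8 CPM and 16.8, 15.9 and 14.2 CPM. It fell by 22.2% in A375 (log2 fold change -0.36, SE 0.0849, adjusted p = 0.00704) and by 28.3% in SK-MEL-28 (-0.48, SE 0.0998, adjusted p = 0.00488), with no overlap. ATF6, the membrane-bound transcription factor at chr1:161766298-161977574, was at 99.4, 91.8 and 102.9 CPM with etoposide and 89.9, 90.8 and 86.8 CPM with etoposide + rapamycin in A375, and at 82.6, 81.6 and 78.9 CPM and 85.4, 83.7 and 83.4 CPM in SK-MEL-28. The groups lay in opposite order in the 2 lines, by small steps, and neither difference was called (log2 fold change -0.13, SE 0.0521, adjusted p = 0.0803 in A375 and 0.053, SE 0.0468, adjusted p = 0.49 in SK-MEL-28).

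**Figure D4:**
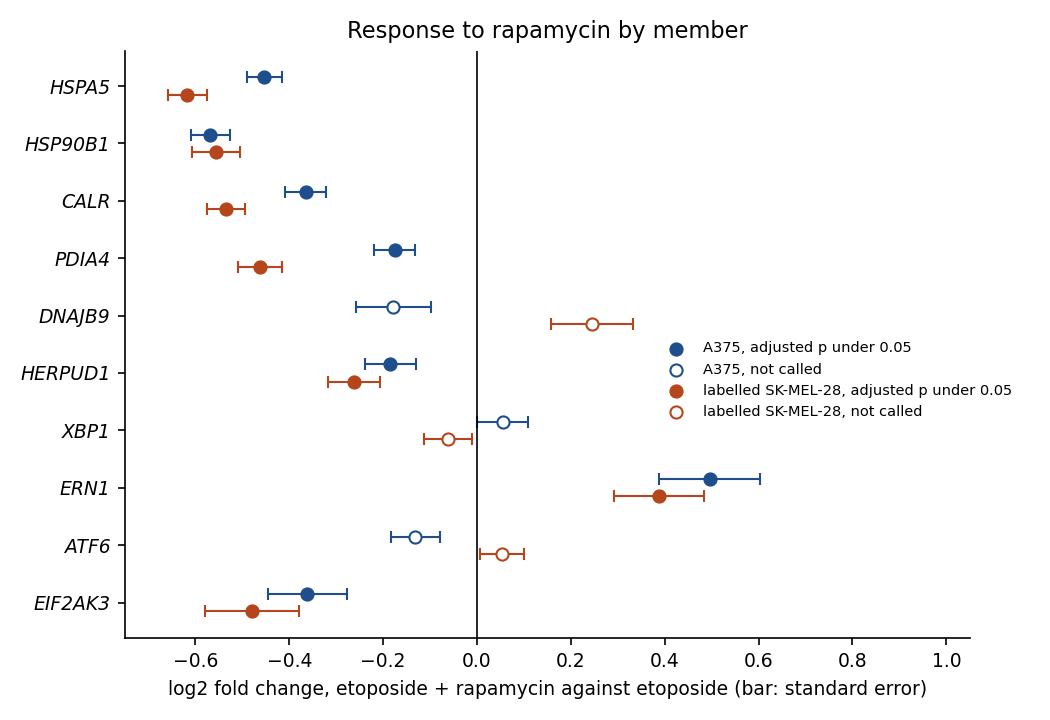
Response to rapamycin of the 10 genes in both lines (x axis: log2 fold change of etoposide + rapamycin against etoposide; bars, standard error; filled points, adjusted p under 0.05). The 4 chaperones, HERPUD1 and EIF2AK3 lie left of 0 in both lines and ERN1 right of 0. For DNAJB9, XBP1 and ATF6, none of them called, the lines lie on either side of 0.

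Whether the response differed between the lines was tested in 1 fit of all 12 libraries, where positive values are higher, or fell less, in SK-MEL-28. PDIA4 fell more in SK-MEL-28 (difference in log2 fold change -0.28, SE 0.0577, adjusted p = 0.00949). For DNAJB9 the difference was 0.43 (SE 0.114, adjusted p = 0.0358), with the lines in opposite directions. These were 1 lower and 1 higher of the 10 genes, beside 2.97% and 2.66% of 20101 genes. The DNAJB9 call was lost in 9 of the 12 fits that leave out 1 library, with adjusted p from 0.033 to 0.118 over all 12. It was kept without the second A375 etoposide library and without the first or the third SK-MEL-28 etoposide library. The PDIA4 call was kept in all 12 (0.00799 to 0.0349). HSPA5 and CALR had differences of -0.16 each that were not called (adjusted p = 0.076 and 0.105), and DESeq2 called both (adjusted p = 0.00188 and 0.00811). ATF6 differed by 0.19 (SE 0.0699, adjusted p = 0.123). For HSP90B1 the difference was 0.020 with an SE of 0.0639, and for HERPUD1, XBP1, ERN1 and EIF2AK3 it lay between -0.11 and -0.070, with adjusted p from 0.448 to 0.755.

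With etoposide alone, SK-MEL-28 had more mRNA of 3 of the chaperones than A375. HSPA5 was 1.138 times as high in SK-MEL-28 (adjusted p = 0.000495), CALR 1.208 times (adjusted p = 4.18e-05) and PDIA4 1.231 times (adjusted p = 2.14e-05), all in edgeR's quasi-likelihood test. DNAJB9 and ATF6 were lower in SK-MEL-28, with log2 differences of -0.37 (adjusted p = 0.00171) and -0.28 (adjusted p = 0.00035). The other 5 genes were not called. The 3 higher and 2 lower genes of 10 stand beside 15.1% higher and 16.7% lower among 20101 genes. With rapamycin these 3 chaperones stood in SK-MEL-28 and A375, in that order, at 722.5 ± 24.7 against 707.3 ± 3.70 CPM for HSPA5, 908.4 ± 22.1 against 840.8 ± 16.3 CPM for CALR and 202.6 ± 1.98 against 199.8 ± 5.22 CPM for PDIA4 (SD, n = 3). This comparison shares the etoposide libraries with the others, and line cannot be told apart from anything else that differed between the 2 sets of libraries.

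The other genes of the pathway were described by 5 lists. As background, A375 had 13.8% of all genes tested lower, 14.3% higher and a median log2 fold change of -0.0051. The SK-MEL-28 background was 10.1% lower, 8.83% higher and a median of 0.0053. Of 26 further ER folding enzymes and cochaperones, 16 fell and 0 rose in A375, while 17 fell and 0 rose in SK-MEL-28, with medians of -0.26 and -0.27. P4HB, the protein disulfide isomerase subunit of prolyl hydroxylase, fell from 900.4 to 746.0 CPM in A375 (log2 fold change -0.27, adjusted p = 0.000417) and from 1127 to 759.0 CPM in SK-MEL-28 (-0.57, adjusted p = 8.54e-07). HYOU1, the nucleotide exchange factor of HSPA5, fell by 0.26 and 0.57 on the log2 scale (adjusted p = 0.000854 and 3.3e-06), and P4HB and HYOU1 were the 2 genes of this list that fell more in SK-MEL-28, like PDIA4 (difference -0.30 for each, adjusted p = 0.0023 and 0.00484). PDIA3, the isomerase that works with CALR, fell by 0.43 and 0.42 on the log2 scale (adjusted p = 3.57e-05 and 5.31e-05), and the lectin chaperone CANX by 0.31 and 0.15 (adjusted p = 0.000134 and 0.0287).

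Among genes of protein entry into the ER there were also more falls than rises. Of 24 translocon, signal peptidase and oligosaccharyltransferase genes, 12 fell and 0 rose in A375, and 12 fell and 1 rose in SK-MEL-28, with medians of -0.15 and -0.17. SSR1, a subunit of the translocon-associated complex, fell by 0.42 on the log2 scale in A375 and by 0.30 in SK-MEL-28 (adjusted p = 9.32e-05 and 0.00853). The signal peptidase subunit SEC11A rose in SK-MEL-28 (0.20, adjusted p = 0.0263) and was not called in A375 (0.11, adjusted p = 0.155). Its difference between the lines was not called (0.091, adjusted p = 0.586). The oligosaccharyltransferase subunits DDOST and RPN2 each fell by 0.15 on the log2 scale in A375 (adjusted p = 0.013 and 0.0171) and by 0.22 and 0.27 in SK-MEL-28 (adjusted p = 0.00303 and 0.00214). SEC61A1, the channel itself, fell by 0.19 in SK-MEL-28 (adjusted p = 0.00578) and was not called in A375 (-0.11, adjusted p = 0.0566). The SEC61A1 difference between the lines was not called (-0.077, adjusted p = 0.412). Of the 24 genes of ER-associated degradation, the partners of HERPUD1, 23 were tested, of which 9 fell and 2 rose in A375 and 4 fell and 0 rose in SK-MEL-28, with medians of -0.054 and -0.063. The background for A375 was 13.8% lower, 14.3% higher and a median of -0.0051. That for SK-MEL-28 was 10.1% lower, 8.83% higher and a median of 0.0053. The degradation medians lay nearer to these background medians than the translocon medians did. EDEM3, which trims mannose from misfolded glycoproteins, and SEL1L, the scaffold of the ubiquitin ligase, fell in both lines, EDEM3 by 0.47 and 0.30 on the log2 scale (adjusted p = 9.42e-05 and 0.0013) and SEL1L by 0.35 and 0.34 (adjusted p = 0.000313 and 0.000782). VCP, the ATPase that extracts their clients, was the most abundant of the list, at 569.2 and 586.5 CPM in A375 and 595.1 and 570.9 CPM in SK-MEL-28, and was not called (adjusted p = 0.442 and 0.328). Its cofactor NPLOC4 (adjusted p = 0.204 and 0.54) and the lectin OS9 (0.48 and 0.173) were not called either.

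Beside EIF2AK3, whose own mRNA fell, the list of its downstream genes was counted. Of 13 PERK-arm and ATF4 target genes, 4 rose, 2 fell and 7 were not called in A375. In SK-MEL-28, 4 rose, 1 fell and 8 were not called. The medians were 0.12 and 0.13. Of all genes tested, 14.3% rose and 13.8% fell in A375, and 8.83% rose and 10.1% fell in SK-MEL-28, so the falls were near the background. ATF4, the transcription factor of this arm, rose from 222.1 to 263.1 CPM in A375 (log2 fold change 0.25, adjusted p = 0.0014) and from 176.2 to 219.3 CPM in SK-MEL-28 (0.31, adjusted p = 0.00257). PPP1R15A, the phosphatase subunit that reverses eIF2 alpha phosphorylation, rose by 0.32 and 0.38 (adjusted p = 0.000309 and 0.00379), and ATF3 by 0.37 and 0.56 (adjusted p = 0.000766 and 7.05e-05). DDIT3 (CHOP) fell in A375 from 20.0 to 14.5 CPM (log2 fold change -0.46, adjusted p = 0.00165), stood at 14.4 and 16.8 CPM in SK-MEL-28 (adjusted p = 0.225), and the difference between the lines was called (0.69, adjusted p = 0.0118). STC2 fell in SK-MEL-28 from 18.0 to 11.1 CPM (-0.70, adjusted p = 0.00022), and its difference was called too (-0.66, adjusted p = 0.0151). CHAC1, which degrades glutathione, rose in A375 (0.50, adjusted p = 0.0246), where the cystine transporter SLC7A11 fell (-0.19, adjusted p = 0.0375). Neither was called in SK-MEL-28 (adjusted p = 0.694 and 0.834), and neither difference between the lines was called (adjusted p = 0.2 and 0.255). ATF4 also answers other kinases than EIF2AK3, and these counts do not tell its inputs apart. EIF2AK3 acts on a translation factor, and translation was not measured.

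The last list held 16 genes that process or bind the sensors, of which 3 rose and 3 fell in A375, and 2 rose and 0 fell among the 15 tested in SK-MEL-28 (medians -0.034 and 0.027). Of all genes tested, 14.3% rose and 13.8% fell in A375 and 8.83% rose in SK-MEL-28, so these shares were near the background. ATF6 is cut by a pair of Golgi proteases. MBTPS1, which cuts first, rose by 0.21 on the log2 scale in A375 and by 0.17 in SK-MEL-28 (adjusted p = 0.00498 and 0.0237). MBTPS2, which cuts next, fell in A375 (-0.20, adjusted p = 0.0454), was not called in SK-MEL-28 (0.13, adjusted p = 0.148), and differed between the lines (0.33, adjusted p = 0.046); it was chosen after its values were seen. CREB3L4, a transcription factor released by the same proteases, rose by 0.57 and 0.69 (adjusted p = 0.00245 and 0.00497). EIF2S1, the eIF2 alpha subunit that EIF2AK3 phosphorylates, fell in A375 (-0.22, adjusted p = 0.00814) and was not called in SK-MEL-28 (-0.080, adjusted p = 0.437). Its difference between the lines was not called (0.15, adjusted p = 0.368). EIF2AK4 (GCN2), another kinase of eIF2 alpha, and TMBIM6, an inhibitor of ERN1, were called in neither line (adjusted p = 0.669 and 0.778 for EIF2AK4, 0.098 and 0.197 for TMBIM6).

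**Figure D5:**
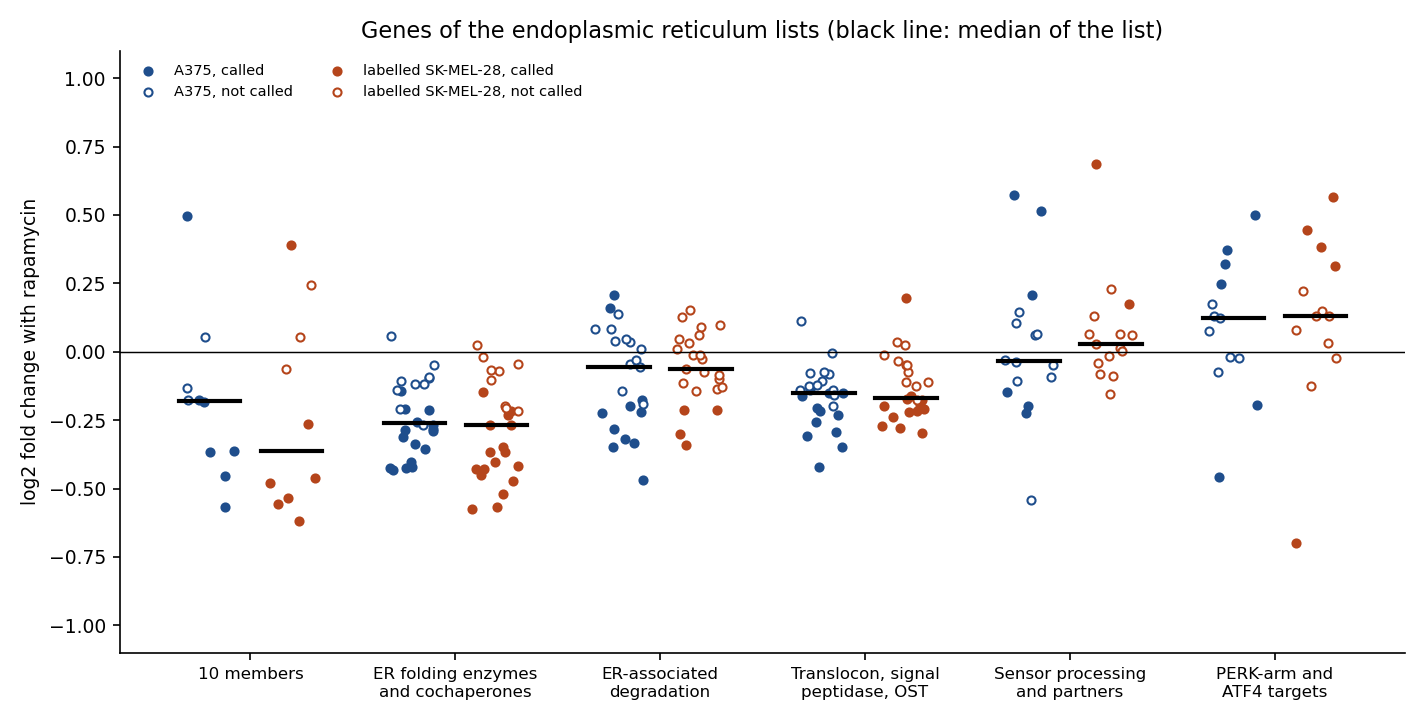
Response to rapamycin of the 10 genes and of the 5 pathway lists (y axis: log2 fold change of etoposide + rapamycin against etoposide; each point 1 gene, filled where called; black lines, median of a list in a line). The folding enzymes lie almost wholly below 0, with medians of -0.26 for A375 and -0.27 for SK-MEL-28, and the PERK-arm and ATF4 targets have medians of 0.12 and 0.13.

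The motifs were then set beside the response. Of the 5 members with an ERSE or ERSE-II, 4 fell in both lines, and XBP1, with an ERSE close to its start, was not called. Of those that held neither, PDIA4 and EIF2AK3 also fell, ERN1 rose, and DNAJB9 and ATF6 were not called. Of the other genes with RefSeq promoters, 38 had an ERSE or ERSE-II in any of their windows of the same length, and 27 were tested. Of these 27, 8 fell and 3 rose in A375 and 11 fell and 1 rose in SK-MEL-28. Of all genes tested, 13.8% fell and 14.3% rose in A375, and 10.1% fell and 8.83% rose in SK-MEL-28. The medians of the 27 genes were -0.093 and -0.14, against -0.0051 and 0.0053 over all genes tested. Part of these were folding genes. Without the folding list, 4 of 21 fell and 3 rose in A375, beside 13.8% and 14.3% of all genes, and 6 fell and 1 rose in SK-MEL-28, beside 10.1% and 8.83%, with medians of -0.013 and -0.069. Among the lists, 6 of the 24 folding genes with a promoter in the table held a match (CANX, CRELD2, ERO1B, HYOU1, PDIA6 and SDF2L1), and 0 genes of the other 4 lists did.

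The members were last compared by their pattern over the 12 libraries, as the Pearson correlation of log2 CPM after the mean of each line was taken out, over 18140 genes and as a description only. HSPA5 was most like VLDLR (r = 0.993), APOBEC3G (0.992), PGAM1 (0.992), COPG1 (0.991) and LZTS1 (0.991). Of the other members, CALR came closest to it (0.985), followed by HSP90B1 (0.981), PDIA4 (0.951), EIF2AK3 (0.941) and HERPUD1 (0.915), and ERN1 was opposed (-0.896). The values for ATF6 (0.202), XBP1 (0.105) and DNAJB9 (-0.241) were nearer to 0. DNAJB9 was most like DEGS1 (0.948), LRP11 (0.938), TGIF1 (0.931), ZBTB44 (0.927) and NEK10 (0.924), and among the members most like ATF6 (0.692). All points share the treatment groups, so genes that answer rapamycin correlate with each other.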

How the data were processed

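PolyA-selected RNA of A375 and SK-MEL-28 cells was sequenced in 12 libraries, 3 per group, on a NovaSeq. The authors used HISAT 2.2.0 to align reads to GRCh38, then Samtools 1.3.1, then StringTie 2.1.4 to estimate levels per gene of the Ensembl release 90 annotation. The deposited values are raw counts, 1 column per library, neither normalized nor pooled. How coverage became counts and whether strand was used are not given in the sources used here, so precision was taken from the spread between libraries, which may be partly technical. Rows naming no gene (5 of 58312, at most 0.00529% of a library) were left out of library sizes and tests.

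Members, gene lists and markers were chosen with earlier results of these data known. Counts were tested with edgeR 4.0.16 in R 4.3.3 (filterByExpr with a minimum count of 10, TMM, glmQLFit, glmQLFTest), each line fitted alone and the contrasts between lines in 1 fit of all libraries, and p-values adjusted by Benjamini-Hochberg over every gene in the fit. Genes were called below an adjusted p of 0.05, and the number that also passed a fold change of 1.5 is given beside. The SE is the log2 fold change over the square root of F. CPM used TMM over all 12 libraries, and log2 CPM a prior count of 2. Distances between libraries are Euclidean on log2 CPM. Transcript lengths and gene positions came from GENCODE release 44, and promoters from RefSeq, all 10 members matching. For PDIA4 and XBP1, with 2 entries each, the one nearest the canonical start was used. The genes named were the members and, per list, the 3 with the highest mean CPM and the largest called change in each direction and line with a mean of at least 100 counts, and for HSPA5 and DNAJB9 the 5 genes most alike in pattern. The values of 1 gene that this rule names are not reported here, and counts over its list include it. The folds between the mean levels of groups covered genes with a mean of at least 100 counts. Group labels share replicate numbers, but same-numbered libraries did not deviate together, so they were not paired. Alternatives were DESeq2 1.42.0, RLE size factors, library totals, filters of 1 count in any and 10 counts in every library, the replicate number as a block, summed rows of one symbol, other sets of libraries per fit, and each library left out in turn.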

Additional observations from a re-analysis of the deposited data

Results flagged for a closer look

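2 of the 10 genes had a response to rapamycin that differed between the lines in a direct test of the difference (edgeR's quasi-likelihood test of the interaction, adjusted over 20101 genes, of which 2.97% were called lower and 2.66% higher). For PDIA4 the log2 fold change in SK-MEL-28 minus that in A375 was -0.28, and in each line all 3 libraries with rapamycin were below all etoposide libraries. For DNAJB9 it was 0.43, with lower levels in all 3 A375 libraries with rapamycin and higher levels in all 3 SK-MEL-28 libraries. The PDIA4 call was kept in all 12 fits that leave out 1 library, and the DNAJB9 call was lost in 9 of them (adjusted p up to 0.118), under the replicate block (0.0929) and when genes with as little as 1 read in a library were kept (0.0772). Both rest on the libraries labelled SK-MEL-28, whose pigment genes went against the label. Under etoposide alone PDIA4 was higher and DNAJB9 lower in SK-MEL-28 (log2 differences 0.30 and -0.37, adjusted p = 2.14e-05 and 0.00171). With rapamycin the means in SK-MEL-28 and A375 were 202.6 and 199.8 CPM for PDIA4 and 26.4 and 25.3 CPM for DNAJB9. The etoposide libraries enter both comparisons, so these are not independent.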

How the results depend on the processing

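Without a replicate block or other change, the numbers of the 10 genes called were 7 in A375, 7 in SK-MEL-28, 2 for the difference between the lines and 5 between the lines under etoposide. With a fold change over 1.5 also required, 1109 genes and 0 of the 10 were called in A375, 943 and 1 in SK-MEL-28, 326 and 0 for the difference, and 2521 and 0 between the lines. For the difference, where 1130 genes were called, DESeq2 called 1738 genes and 4 of the 10 and a filter of 1 count in any library left 658 and 1, DNAJB9 being lost with the latter (adjusted p = 0.0772); leaving out 1 library gave 594 to 1315 genes and 1 to 2 of the 10, the low counts being 594 and 644 without the third A375 etoposide + rapamycin or etoposide library, and 710, 616 and 705 without the second SK-MEL-28 etoposide + rapamycin library, the second etoposide library and the third etoposide library. HSPA5 was then called without the first SK-MEL-28 etoposide + rapamycin library (adjusted p = 0.0421), as with a filter of 10 counts in every library (0.0439). With the replicate number as a block, a pairing that the data do not bear out (correlations of same-numbered libraries from -0.0298 to 0.0209), the difference had 620 genes and 1 of the 10, DNAJB9 again being lost (adjusted p = 0.0929), and the comparison of the lines 3600 genes against 6392, with DNAJB9 lost (adjusted p = 0.0615). HERPUD1 in A375 was not called under the block (adjusted p = 0.0587) or the filter of 1 count (0.0671). DNAJB9 in SK-MEL-28 was called in 1 fit of all libraries (adjusted p = 0.0406), and ATF6 in A375 without the second etoposide library (0.0299). The HSP90B1 difference, not called, ran from -0.0229 to 0.052 when 1 library was left out, with -0.0121 and -0.0150 among the values below 0, and the EIF2AK3 contrast of the lines, not called, from -0.0357 to 0.105. The cause of these changes was not tested. The other alternatives kept the direction of every difference of the 10 genes.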
